A study of Mus musculus with 12 samples.

Results

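The genes described here are 9 transcripts of the sympathetic neuroblastoma lineage, Mycn, Phox2a, Th, Dbh, Hand2, Gata3, Isl1, Chga and Stmn2, followed through macrophage libraries that had or had not been given medium from neuroblastoma cells. They were a named list, matched by symbol to the Ensembl identifiers of the count table, and all 9 were among its 54232 genes. The question was whether media of 2 neuroblastoma lines, NB9464 and NBT3L, left different tumor lineage transcripts in the macrophage libraries. Th and Chga had no read in any library. Dbh and Phox2a were read in all 4 NBT3L libraries and in no NB9464 library, Hand2 was read in every library with medium of either line and in none without, and Mycn had more reads in NB9464 libraries than in NBT3L libraries, with overlapping values.

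The libraries were poly(A) RNA of bone marrow derived macrophages (BMDMs) from wild-type C57BL/6 mice, 6 to 8 weeks old by the methods of the study. All groups share that genotype and 5 days of culture, in M-CSF by the methods. There were 6 groups of 2 libraries: no tumor-conditioned medium (NS, libraries SJ1 and SJ2), NB9464 TCM (SJ3 and SJ4), NBT3L TCM (SJ5 and SJ6), 500 nM R788 without TCM (R788, SJ7 and SJ8), NB9464 TCM + R788 (SJ9 and SJ10) and NBT3L TCM + R788 (SJ11 and SJ12), each for 24 h. R788 (fostamatinib) inhibits the tyrosine kinase Syk. NB9464 is a mouse line with MYCN amplification, and its TCM was DMEM left on the cells without serum. The preparation of NBT3L TCM, the vehicle of R788 and the medium of cells without TCM were not described in the sources used here, so effects of TCM and of base medium cannot be told apart. Neither is it stated whether the libraries of a group came from separate animals or cultures, so each p-value measures only the spread between these libraries, which may be technical.

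Neuroblastoma arises from sympathetic precursors of the neural crest. The homeodomain protein Phox2a, the basic helix-loop-helix (bHLH) protein Hand2, the zinc finger protein Gata3 and the LIM homeodomain protein Isl1 belong to the transcription factor circuit of these cells. Products of these cells include Th and Dbh, the enzymes of catecholamine synthesis that make L-DOPA and noradrenaline, the secretory granule protein Chga and the neuronal microtubule regulator Stmn2. Mycn is the oncogene whose human counterpart is amplified in high-risk disease. NB9464 derives from a mouse with a human MYCN transgene, and whether reads of that transgene were counted under mouse Mycn was not tested. Macrophages are of another lineage, and conditioned medium can hold RNA from the cells it covered. Counts per gene do not separate RNA brought in with a medium from RNA made by the macrophages, and fewer cells of a type cannot be told apart from less RNA per cell.

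Positions are on GRCm38. Mycn lies on the minus strand at chr12:12936093-12941914, Phox2a on the plus strand at chr7:101818313-101822726, Dbh on the plus strand at chr2:27165233-27183200, Hand2 on the plus strand at chr8:57320983-57324633, Gata3 on the minus strand at chr2:9857078-9890034 and Isl1 on the minus strand at chr13:116298281-116309689. The promoters of Mycn, Phox2a and Isl1 are printed, as 3 members with more reads under 1 medium than the other and windows free of exons, from RefSeq (GRCm38.p6), 5′ to 3′ on the strand of the gene. Each covers the annotated bases upstream of the start that lie in no annotated exon, and capitals mark CANNTG, the E-box letters that bHLH proteins bind. The motif reads the same pattern on both strands.
Mycn, chr12:12941915-12942086, minus strand: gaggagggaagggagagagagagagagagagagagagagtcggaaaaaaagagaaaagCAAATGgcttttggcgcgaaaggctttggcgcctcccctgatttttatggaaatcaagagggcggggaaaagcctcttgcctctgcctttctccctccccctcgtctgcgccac
Phox2a, chr7:101818063-101818312, plus strand: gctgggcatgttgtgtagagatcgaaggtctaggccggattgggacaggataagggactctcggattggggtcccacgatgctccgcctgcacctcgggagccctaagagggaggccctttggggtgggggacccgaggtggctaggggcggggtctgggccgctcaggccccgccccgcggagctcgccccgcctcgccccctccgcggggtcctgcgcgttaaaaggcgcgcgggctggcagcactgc
Isl1, chr13:116309690-116309938, minus strand: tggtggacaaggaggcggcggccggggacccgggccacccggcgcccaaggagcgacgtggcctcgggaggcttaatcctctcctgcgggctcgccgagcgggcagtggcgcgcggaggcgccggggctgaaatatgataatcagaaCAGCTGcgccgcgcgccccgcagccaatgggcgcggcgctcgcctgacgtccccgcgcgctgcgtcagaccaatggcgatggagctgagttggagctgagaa
The Mycn window of 172 bases held 1 E-box, as did the Isl1 window of 249 bases, and the Phox2a window of 250 bases held none. Among 32851 RefSeq promoters, windows of these lengths held at least 1 E-box in 54.0%, 66.1% and 66.2%. These are descriptions of the letters in the windows. The windows of Dbh, Hand2 and Gata3 overlap annotated exons and are not shown.

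Depth was high and similar, with total counts of 44977847 to 56449685 per library and 16149 to 18343 genes with a count. A count of 0 allows up to 3 counts, which was 0.0531 to 0.0667 in CPM, the count scaled to a common library total of 1000000. Even values made up 65.2% to 67.9% of the counts from 1 to 40, a pattern that arises where the mates of a pair are counted separately, so small counts may stand for fewer fragments. A count of 0 would then allow more than 3 counts, so the lower bounds given below would be smaller and the counting interval wider. All intervals and limits cover counting error only. The defining macrophage genes were abundant in every library, with Adgre1 (F4/80) at 76084 counts or more, Csf1r (M-CSF receptor) at 83030 or more and Lyz2 (lysozyme) at 1389542 or more.

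The 9 lineage genes together were a trace of each library. Their summed counts were 4 to 52 in the libraries without TCM, 93 to 136 with NB9464 TCM and 71 to 103 with NBT3L TCM, that is 0.0800 to 0.921, 1.65 to 2.89 and 1.37 to 2 CPM. The groups with TCM lay above those without, and the 2 media overlapped. The highest sum without TCM, in SJ8, was made up of 52 counts given to Gata3. Per length, the means in NB9464 libraries were 0.282 ± 0.0851 CPM per kb for Gata3, 0.200 ± 0.151 for Hand2, 0.136 ± 0.0814 for Mycn and 0.0128 ± 0.0158 for Isl1 (SD, n = 4, 2 of them with R788). Gata3, Hand2 and Mycn did not differ from their neighbours in this order beyond the SD, and Isl1 lay below Mycn. In NBT3L libraries the order was Gata3 at 0.187 ± 0.0709, Dbh at 0.116 ± 0.0279, Hand2 at 0.105 ± 0.0721, Phox2a at 0.0549 ± 0.0177, Mycn at 0.0312 ± 0.0366 and Isl1 at 0.0297 ± 0.0128, with the SD of every neighbouring pair overlapping. The macrophage receptor Mertk, the lowest of the 8 macrophage markers on this scale, had means of 18.9 ± 3.42 with NB9464 TCM and 7.54 ± 1.16 with NBT3L TCM (SD, n = 4).

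**Figure D1:**
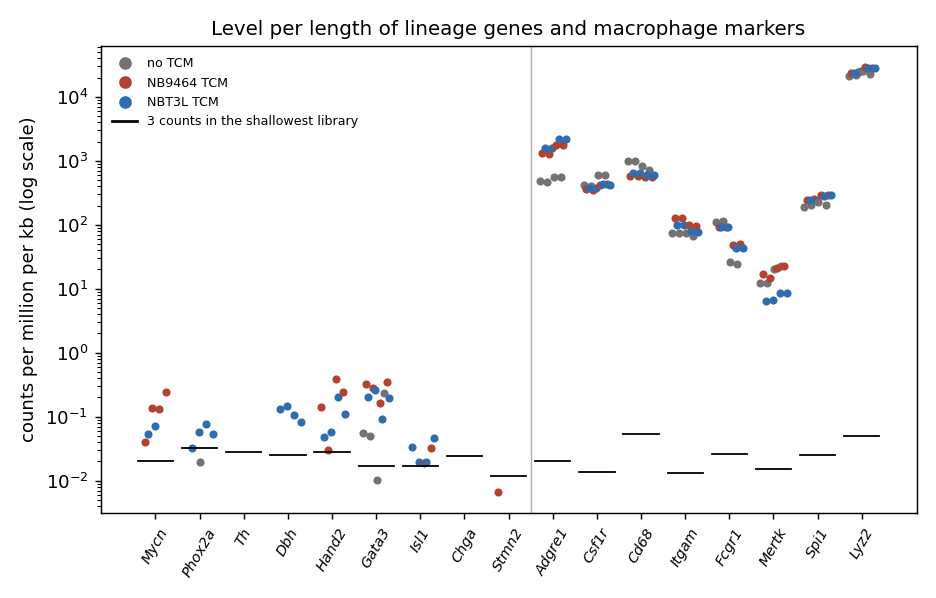
Level per gene length (CPM per kb, log scale) of the 9 lineage genes and 8 macrophage markers in each of 12 libraries, coloured by medium, with a black bar at the level of 3 counts in the shallowest library and counts of 0 not drawn. The lineage genes lie below 1 and the macrophage markers above 1 in every library.

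Of the transcription factors, Phox2a and Isl1 were the members nearest to the limit of detection. Phox2a had 3 and 6 counts with NBT3L TCM, 8 and 6 with NBT3L TCM + R788, 0 in all 4 NB9464 libraries, 0 in both NS libraries, and 2 and 0 with R788 alone. The NBT3L libraries did not overlap the others, and their mean was at least 1.95-fold higher than in NB9464 libraries by the limit of 3 counts per library. Against no TCM there were 23 counts against 2, both of the latter in SJ7 and under that limit, and the ratio of these sums scaled by depth, 11.7, had a 95% counting interval of 2.90 to 103. Both the bound and the interval take each count as a separate fragment. No library reached 10 counts, so Phox2a was not among the genes tested. In a fit without a count filter its log2 difference between NB9464 and NBT3L TCM was -5.05 ± 2.44 (SE), with an unadjusted p of 0.0384 and no adjusted p in DESeq2. The last 95 bases of Phox2a, chr7:101822632-101822726, overlap exons of Inppl1 on the opposite strand, which had 4582 to 11838 counts in every library, and whether counting used the strand was not stated.

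Isl1 had 6 and 4 counts with NBT3L TCM, 4 and 10 with NBT3L TCM + R788, 0 and 0 with NB9464 TCM, 4 and 6 with NB9464 TCM + R788, and 0 in the 4 libraries without TCM. The 2 media overlapped at a 2.32-fold higher mean in NBT3L libraries, and the NBT3L mean was at least 2.02-fold above that without TCM. Isl1 also failed the filter. Without the filter, the difference between media was -2.75 ± 1.88 on the log2 scale, with an unadjusted p of 0.142, and NBT3L TCM against no TCM had an adjusted p of 0.0203 (DESeq2, Benjamini-Hochberg).

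Hand2 was the only member read in all 8 TCM libraries and in no other. It had 18 and 4 counts with NB9464 TCM, 48 and 27 with NB9464 TCM + R788, 5 and 7 with NBT3L TCM, 25 and 14 with NBT3L TCM + R788, and 0 in the other 4. Among the 25419 genes with a count in any library, 0.177% had this pattern. Hand2 passed the count filter through TCM libraries alone, so its calls against no TCM add nothing to these counts. Hand2 was higher than without TCM by at least 8.11-fold with NB9464 TCM (adjusted p = 7.33e-07, DESeq2) and at least 4.24-fold with NBT3L TCM (adjusted p = 1.4e-05, DESeq2). The 2 media overlapped, at a 1.91-fold ratio of means, and the log2 difference of 0.77 ± 0.88 did not pass the test (adjusted p = 0.652, DESeq2). Exons of Hand2 share 461 bases with exons of Hand2os1 on the opposite strand, which had 0 counts in the 4 libraries without TCM, 2 to 15 with NB9464 TCM and 0 to 12 with NBT3L TCM, so part of the Hand2 counts may belong to it or the reverse.

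Gata3 was the exception among the factors, since it was read in all 12 libraries. Gata3 is also a factor of T cells and innate lymphoid cells. It had 11 and 10 counts in NS, 2 and 52 with R788, 70 and 64 with NB9464 TCM, 34 and 66 with NB9464 TCM + R788, 36 and 54 with NBT3L TCM, and 19 and 42 with NBT3L TCM + R788. SJ8 lay within the range of the TCM libraries and the other 3 libraries without TCM lay below it, so the groups overlapped. Relative to no TCM, Gata3 rose with NB9464 TCM by 1.99 ± 0.65 on the log2 scale (adjusted p = 0.00643, DESeq2), and its value with NBT3L TCM, 1.45 ± 0.66, missed the threshold (adjusted p = 0.0551, DESeq2). Without SJ8 the values were 3.77 (adjusted p = 1.38e-06, DESeq2) and 3.24 (adjusted p = 4.46e-05, DESeq2), and without SJ10 the NB9464 value was 1.65 and no longer called (adjusted p = 0.0643, DESeq2). The difference between the media was 0.54 ± 0.64 (adjusted p = 0.67, DESeq2). Within the span of Gata3, 4930412O13Rik on the opposite strand had 24 counts in SJ8 and 0 in the other 11 libraries, although no exons of the pair overlap. Gata3 shares 77 exon bases with 9230102O04Rik on the same strand, which had 0 to 11 counts per library, and 155 with the opposite-strand Gm13256, which had none. Of 10 T cell and innate lymphoid markers, all 10 had counts without TCM and 9 with either TCM. Their summed level was 81.1 to 175 CPM without TCM, 28.9 to 64.7 with NB9464 TCM and 28.1 to 76.7 with NBT3L TCM. Most of that sum was Il7r, the interleukin-7 receptor, with 3243 to 8160 counts without TCM and 1067 to 3637 with either TCM. The markers did not move together, since Il2ra, the interleukin-2 receptor, had 2 to 30 counts without TCM and 74 to 171 with it. SJ8, the library without TCM with the most Gata3 counts, also had the highest counts of Cd4 (201), Rora (861), Bcl11b (20) and Cd3e (5) of all 12. The other markers were not highest there, with Il7r at 4180, Cd2 at 72, Il1rl1 at 62, Cd3g at 4, Il2ra at 2 and Cd8a at 0. SJ8 had the largest total count and the fewest genes with a count, 16149. The T cell gene Cd8a had at most 2 counts in any library. Summed levels of 7 mast cell and basophil markers were 0.195 to 1.63 CPM without TCM, 0.377 to 0.958 with NB9464 TCM and 0.438 to 1.90 with NBT3L TCM, with Fcer1a and Ms4a2 at 0 throughout. The part of other cells in the Gata3 counts was not tested.

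**Figure D2:**
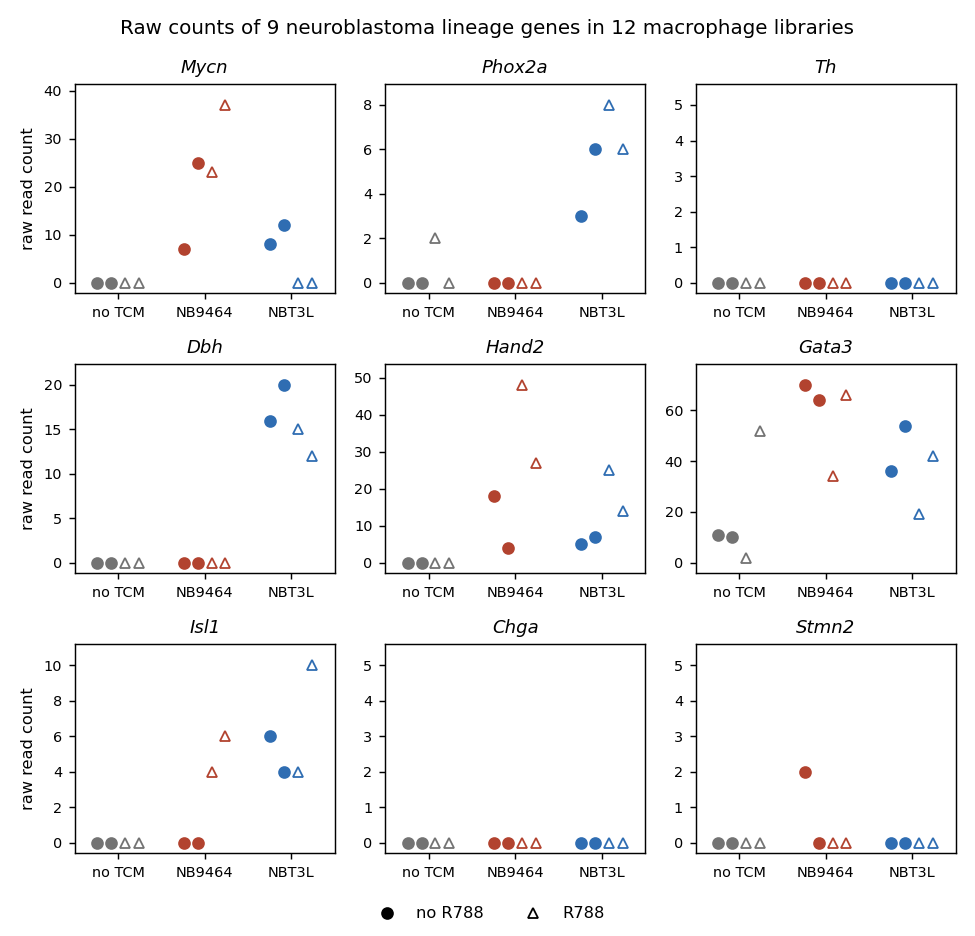
Raw read counts (vertical axis, a separate scale per gene) of the 9 genes in 12 libraries, grouped by medium, with filled circles for libraries without R788 and open triangles for libraries with it. Dbh and Phox2a lie above 0 in all NBT3L libraries and at 0 in all NB9464 libraries, and Th and Chga lie at 0 throughout.

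Of the catecholamine enzymes, Dbh had reads and Th had none. Dbh, which turns dopamine into noradrenaline, had 16 and 20 counts with NBT3L TCM, 15 and 12 with NBT3L TCM + R788, and 0 in the other 8 libraries. The NBT3L libraries did not overlap any other. The mean was at least 5.46-fold higher than in NB9464 libraries and at least 5.39-fold higher than without TCM. Against no TCM Dbh was called (log2 difference 6.69 ± 1.77, adjusted p = 0.000493, DESeq2). Dbh passed the count filter only through its NBT3L libraries, so this call adds nothing to the counts. Against NB9464 TCM, the log2 difference of NB9464 to NBT3L was -6.54 ± 1.77 with an unadjusted p of 0.000229, and DESeq2 gave no adjusted p because its mean count was low. In fits that did give one, the adjusted p was 0.00262 without the count filter (DESeq2), 0.00261 with TMM scaling (DESeq2) and 0.0209 in edgeR. The filter limits the TMM and edgeR values in the same way. Th, the first and rate-limiting enzyme, was at 0 in all 12 libraries, which allows up to 3 counts in each, or 0.0282 CPM per kb in the shallowest. Transcripts of Dbh share no stretch of 50 bases with those of another gene, and the same holds for Mycn, Th and Isl1.

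Only a few genes had the detection pattern of Dbh and Phox2a. Of the 25419 genes with a count, 34 (0.134%) were read in all 4 NBT3L libraries and no NB9464 library, and Dbh and Phox2a were 2 of them. Another 21 (0.0826%) had the reverse pattern, and none of the 9 lineage genes was among these. Both patterns leave libraries without TCM aside. Ret and Tbx2 also had the pattern of Dbh and Phox2a, with 8 to 30 and 0 to 8 counts in the libraries without TCM. There were 13 genes read in all 4 NBT3L libraries and in no other library. Besides Dbh they included, chosen after their values were seen, the retinoic acid binding protein Crabp1 with 41, 20, 26 and 56 counts, the serotonin-gated channel Htr3a with 23, 10, 40 and 32, the choline transporter Slc5a7 with 18, 14, 20 and 24, and Hand1 with 28, 10, 22 and 24. The 7 genes read in all 4 NB9464 libraries and no other included, likewise chosen afterward, the LIM homeodomain factor Lhx6 with 14, 10, 13 and 4 counts, the synaptic protein Cbln2 with 22, 32, 20 and 34, and Pet2 with 20, 14, 34 and 120.

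Mycn was read with both media, and most of its reads came from NB9464 libraries. It had 7 and 25 counts with NB9464 TCM, 23 and 37 with NB9464 TCM + R788, 8 and 12 with NBT3L TCM, 0 and 0 with NBT3L TCM + R788, and 0 in the 4 libraries without TCM. Without R788 the media overlapped, since the NBT3L values of 8 and 12 lay between the NB9464 values of 7 and 25. With R788 they did not overlap. Over all 4 libraries of each medium, the mean was 4.37-fold higher with NB9464 TCM. The averaged log2 difference was 3.89 ± 1.25 (adjusted p = 0.0141, DESeq2). Without R788 it was 0.39 ± 1.47 with no adjusted p in DESeq2 and an unadjusted p of 0.792, and with R788, where the NBT3L libraries were at 0, it was 7.40 ± 2.02 (adjusted p = 0.00446, DESeq2). The test of the difference between these values gave 7.01 ± 2.5 and did not pass (adjusted p = 0.248, DESeq2).

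The averaged Mycn call depended on single libraries and on the tool. It was not called without SJ11 (adjusted p = 0.0674, DESeq2) or SJ12 (adjusted p = 0.073, DESeq2), and without SJ4, SJ5, SJ6 or SJ10 DESeq2 gave no adjusted p, with log2 differences of 3.31, 3.80, 3.99 and 3.65. The call with R788 was lost without SJ12 (adjusted p = 0.0799, DESeq2), and without SJ9, SJ10 or SJ11 there was no adjusted p. In edgeR the averaged difference was 4.21 (adjusted p = 0.0506, edgeR). Against no TCM, Mycn was higher with NB9464 TCM by at least 7.72-fold (adjusted p = 3.7e-06, DESeq2), with no overlap. Mycn passed the count filter through TCM libraries alone, so that call adds nothing to the counts. With NBT3L TCM the mean was at least 1.77-fold higher, the groups overlapped, and the log2 difference of 3.16 ± 1.61 did not pass (adjusted p = 0.0921, DESeq2). The family member Myc, which macrophages express, had 1159 to 2998 counts per library.

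Among neuroendocrine and neuronal products, Chga was at 0 in all 12 libraries and Stmn2 had 2 counts in SJ3 and 0 in the other 11, below the limit of 3 counts. Their relatives were read. Chgb, another granule protein, had 6 to 16 counts in the NBT3L libraries, 0 to 8 in the NB9464 libraries and 0 to 24 without TCM, with overlap of all groups. Stmn1, the stathmin of dividing cells, had 6535 to 9867 counts without TCM and 1916 to 2807 with either TCM.

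Counted over all genes, calls were common. Between the media, averaged over R788, 15.5% of 16281 genes tested were called, 6.05% higher and 9.45% lower with NB9464 TCM, and Mycn was the 1 member called. Without R788 the share was 9.4% and no member was called, and with R788 it was 9.62% and Mycn was called. Against no TCM, 45.5% of genes were called with NB9464 TCM, Mycn, Hand2 and Gata3 among them, and 48.1% with NBT3L TCM, Dbh and Hand2 among them. Only Mycn, Dbh, Hand2 and Gata3 passed the filter of 10 counts in 2 libraries. The first 3 passed through the groups in which they were read, which favoured a difference from a group at 0. Their calls against such a group therefore add nothing to the counts. Mycn with NBT3L TCM still missed the threshold against no TCM.

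The averaged R788 effect passed the threshold in no member. Averaged over the 3 media, log2 differences of R788 to no R788 were -1.66 ± 1.17 for Mycn (adjusted p = 0.315, DESeq2), 1.10 ± 0.98 for Hand2 (adjusted p = 0.447, DESeq2), 0.06 ± 0.53 for Gata3 (adjusted p = 0.958, DESeq2) and -0.19 ± 1.52 for Dbh (adjusted p = 0.952, DESeq2), while 29.6% of all genes tested were called. The unadjusted p of these 4 genes was 0.158 to 0.913, and none was under 0.05. That average takes in the libraries without TCM, where Mycn, Dbh and Hand2 were at 0 with and without R788. Dbh was at 0 in the NB9464 libraries too. Mycn went from 7 and 25 to 23 and 37 with NB9464 TCM, and from 8 and 12 to 0 and 0 with NBT3L TCM. Hand2 went from 18 and 4 to 48 and 27, and from 5 and 7 to 25 and 14. The R788 effect within a single medium was not tested. The difference of the R788 effect between the media was called in 0.706% of genes and in no member. Mycn was the 1 member at an unadjusted p under 0.05 (DESeq2, unadjusted p = 0.00502).

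Other genes of the lineage followed different patterns. Calls between the media for these lists are averaged over R788 unless stated otherwise. Among 14 adrenergic regulators, 13 had counts in some NBT3L library, 7 in some NB9464 library and 8 without TCM. For this, 1 count in 1 library was enough, as for Isl2 with NBT3L TCM, which had 2, 2, 8 and 0 with NB9464 TCM. Read in all 4 libraries of a medium were 5 with NBT3L TCM, 3 with NB9464 TCM and 4 without TCM. The same shares over all genes were not computed, so these numbers do not show that the list differs from other genes. Hand1, a bHLH relative of Hand2, had 10 to 28 counts in the 4 NBT3L libraries and 0 in the other 8, at least 7.32-fold more than with NB9464 TCM. Its log2 difference of NB9464 to NBT3L, -6.99 ± 3.68, did not pass the test (adjusted p = 0.204, DESeq2). The most abundant of these genes, Klf7 and Eya1, had 1105 to 2254 and 62 to 568 counts per library, in libraries without TCM too. Alk, the receptor kinase mutated in familial neuroblastoma, was at 0 throughout. The test called 1 of the 8 regulators tested between the media, with a median log2 difference of -3.55 in the list and -0.01 over all genes tested.

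That regulator was Ret, the receptor kinase for GDNF family ligands. Ret had 21 and 8 counts in NS, 19 and 30 with R788, 22, 6, 20 and 12 in the NBT3L libraries, and 0 in all 4 NB9464 libraries. NB9464 libraries did not overlap the others. Ret was lower with NB9464 TCM than with NBT3L TCM (log2 difference -6.51 ± 1.36, adjusted p = 2.81e-05, DESeq2) and than without TCM (adjusted p = 6.23e-06, DESeq2). For NBT3L TCM against no TCM the difference was -0.01 ± 0.91 (adjusted p = 0.997, DESeq2). Ret passed the count filter only through NBT3L libraries and libraries without TCM. Its calls against the NB9464 libraries therefore add nothing to the counts, and the size of -6.51 rests on counts of 0.

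Among 15 catecholamine and vesicle genes, Slc6a2 (noradrenaline transporter), Scg3, Snap25 and Vip were at 0 in all libraries. Gch1, which makes the cofactor of Th, had 2197 to 4849 counts and the neuropeptide Npy 1411 to 5796, in libraries without TCM too. Both were lower with NB9464 TCM than with NBT3L TCM (log2 differences -0.35 ± 0.06 and -0.52 ± 0.07, adjusted p = 2.89e-07 and 3.07e-11, DESeq2), and they were the 2 called of 7 tested. The median of the list was -0.35.

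Among 20 neuronal cytoskeleton and surface genes, Tubb3, the neuronal β-tubulin, went with NB9464 TCM. It had 126 and 157 counts with NB9464 TCM, 294 and 348 with NB9464 TCM + R788, 26, 35, 27 and 54 in the NBT3L libraries, and 5 to 28 without TCM. NB9464 libraries did not overlap the others, and their mean was 6.54-fold above the NBT3L libraries (log2 difference 2.48 ± 0.40, adjusted p = 1.77e-08, DESeq2) and 14.8-fold above no TCM. Uchl1, a neuronal deubiquitinase with 3030 to 11148 counts in every library, and the RNA-binding protein Elavl4 were lower with NB9464 TCM than with NBT3L TCM (log2 differences -0.42 ± 0.06 and -0.56 ± 0.20, adjusted p = 5.6e-12 and 0.0283, DESeq2). These were the 3 called of 12 tested, and the median of the list was -0.26. Nefm and Gap43 were at 0 in all libraries. Of 12 mesenchymal and Schwann cell genes, the collagens Col1a1 and Col3a1 were the 2 called of 9 tested, both lower with NB9464 TCM (log2 differences -0.60 ± 0.13 and -0.66 ± 0.19, adjusted p = 4.52e-05 and 0.00616, DESeq2), and the median of the list was -0.29. Of markers of blood cells, none of 2 B cell, 3 mast cell and basophil and 5 neutrophil markers tested was called between the media, averaged over R788. Without R788 the neutrophil marker Ngp was called, higher with NB9464 TCM (0.39 ± 0.14, adjusted p = 0.0409, DESeq2). Averaged over R788, 2 of 7 T cell and innate lymphoid markers were called, Il1rl1 and Il7r, both lower with NB9464 TCM (log2 differences -2.97 ± 0.95 and -0.36 ± 0.08, adjusted p = 0.0136 and 8.53e-05, DESeq2). Il1rl1 counts overlapped, at 20, 10, 0 and 0 with NB9464 TCM and 10, 38, 12 and 0 with NBT3L TCM. Taken separately, Il1rl1 was called only with R788 (-5.03 ± 1.70, adjusted p = 0.033, DESeq2) and Il7r only without it (-0.555 ± 0.109, adjusted p = 1.02e-05, DESeq2). Of the 8 macrophage markers, 5 were called. Mertk and Itgam were higher with NB9464 TCM (1.24 ± 0.07 and 0.24 ± 0.04, adjusted p = 7.31e-79 and 5.68e-08, DESeq2), and Adgre1, Cd68 and Csf1r were lower (-0.39 ± 0.03, -0.21 ± 0.05 and -0.14 ± 0.03, adjusted p at most 3.73e-05, DESeq2).

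**Figure D3:**
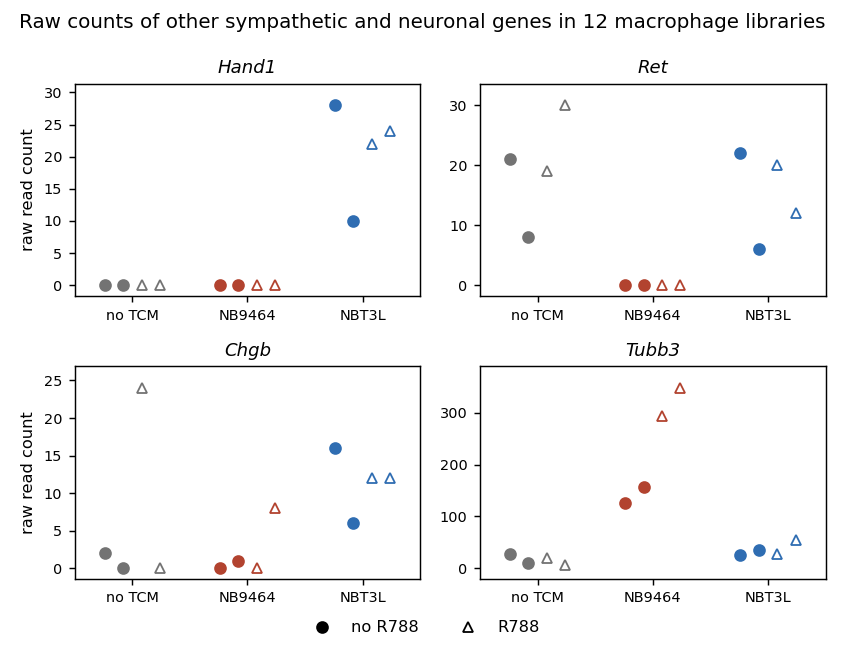
Raw read counts (vertical axis, a separate scale per gene) of 4 other sympathetic and neuronal genes in 12 libraries, grouped by medium, with filled circles without R788 and open triangles with it. Hand1 lies above 0 in the 4 NBT3L libraries alone, Ret lies at 0 in the 4 NB9464 libraries alone, and Tubb3 is highest in the 4 NB9464 libraries.

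For each member that passed the filter, the genes most alike over the 12 libraries were taken by Pearson correlation of log2(normalized count + 1). The libraries share 6 groups and many genes are at 0 in the same groups, so these values describe the pattern alone. Dbh was most like Slc5a7 (r = 0.989), Crabp1 (0.981) and Hand1 (0.979). Mycn was most like Tmcc3os (0.999), which had 4 and 12 counts with NB9464 TCM, 10 and 14 with NB9464 TCM + R788, 4 and 5 with NBT3L TCM and 0 in the other 6, then Gpr161 (0.949) and Mgat3 (0.929). Hand2 was most like Ly9 (0.970), Gm13183 (0.966) and Fam102b (0.964), of which Ly9 and Fam102b had 3880 counts or more in every library. Gata3 was most like Zc3h13 (0.942), Prkaa1 (0.925) and Lrpprc (0.922), which had 2132 counts or more in every library.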

How the data were processed

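RNA of 12 BMDM libraries was measured. The authors deposited a table of raw read counts per Ensembl gene, neither divided by length nor scaled. By the methods, reads were mapped to mm10 with STAR and quantified with Salmon. The submitters' processing notes also name STAR 2.6.1d, Salmon 1.4.0, SAMtools 1.9, Picard 2.26 and MultiQC 1.11. The layout was that of featureCounts, so which program counted was unclear, and neither the use of strand nor the treatment of multimapped reads was stated. Labels give paired-end reads and 2 libraries per group, the methods single reads and triplicates.

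Symbols and positions came from GENCODE M21, which named 54079 of 54232 identifiers. Groups came from the labels. CPM used all counts of a library, and levels per kb used the exon length in the table. Tests covered the 16281 genes that reached 10 counts in 2 or more libraries, using DESeq2 1.42.0 in R 4.3.3, in 1 fit of 6 group means, with two-sided Wald tests, unshrunken log2 differences with SE and Benjamini-Hochberg adjustment over all genes tested in each of 7 contrasts, called at an adjusted p under 0.05. For genes dropped by independent filtering, DESeq2 gives no adjusted p. The scripts were tested on simulated data. A fold against a group at 0 was computed against 3 counts per library. It is a lower bound only if each count stands for a separate fragment. Alternatives were edgeR 4.0.16 (quasi-likelihood, TMM), TMM in DESeq2, no filter, counts divided by 2, a fit of only the libraries compared, and each library left out.

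The members and all lists were chosen with earlier results of these data known. Named beside the members were, of each list, up to 4 genes of highest mean CPM, those called between the media, the 3 genes most alike to each member tested, overlapping genes and paralogs. Genes of the rule by CPM alone that had no call are not all described. Genes outside it, such as list genes at 0 in every library and T cell genes highest in SJ8, were chosen after their values were seen. Some genes of the lists are not reported here.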

Additional observations from a re-analysis of the deposited data

How the results depend on the processing

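Small counts limited every member: Phox2a, Isl1 and Stmn2 were under the count filter, Th and Chga at 0. The number of members called between the media, averaged over R788, was 1 and became 2 with TMM, with no filter and in a fit of only the 8 TCM libraries, each time with Dbh added (adjusted p 0.00261, 0.00262 and 6.28e-05, DESeq2), and 0 with counts divided by 2, where Mycn had no adjusted p. Leaving out 1 library gave 0 to 2. With R788 the number was 1, 0 with counts divided by 2, 2 in the fit of only the libraries compared, and 0 to 1 leaving out 1 library. In edgeR the averaged Mycn call was lost (4.21, adjusted p 0.0506). With counts divided by 2, Gata3 was called for NBT3L TCM against no TCM (1.43, adjusted p 0.0438, DESeq2).

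The genes called over the whole table were 115 for the difference of the R788 effect, 21 in edgeR, 272 in the fit of only the libraries compared, and 46 to 234 leaving out 1 library. Leaving out 1 library gave 795 to 2007 genes between the media without R788 and 852 to 1981 with it. The number of members read without TCM was 2, and 1 with at least 3 counts required or with SJ7 left out.

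Values that changed sign had no call. Without SJ3, Hand2 between the media without R788 was -0.89, and without SJ4 Mycn was -0.78. For the R788 effect, Gata3 was -1.14 without SJ8, -0.16 without SJ10 and -0.15 without SJ12 (range -1.14 to 0.37). For the difference of that effect, Hand2 was -0.38 without SJ4, -0.04 without SJ9 and -0.05 without SJ12, and Gata3 was -0.18 without SJ10 (highest 0.94). The cause was not tested. No paired analysis was possible because library numbers run from SJ1 to SJ12 over all groups and pair nothing.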
